A study of Mus musculus with 10 samples.

Results

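The immediate early genes Jun, Junb, Jund, Fos, Fosb, Fosl1, Egr1, Ier2, Ier3 and Atf3 were followed through ribosome profiling of the CGR8 line, mouse embryonic stem cells of strain 129 grown without feeder cells in serum and leukemia inhibitory factor. The genes were chosen by name, as a set whose mRNAs are known to build up when protein synthesis is blocked, and each was represented by 1 listed transcript, so that 10 of 15269 listed transcripts were followed. Ribosome footprints, the RNase-resistant mRNA fragments recovered with ribosomes, were sequenced from control cells without translation inhibitor and from drug-treated cells. The drugs were 1 µM DMDA-PatA for 10 min, 2 µg/ml harringtonine for 10 min and 0.2 mg/ml puromycin for 20 min. Other RNA-binding proteins or RNA structure can also protect RNA from RNase, as the paper states, and such fragments may be counted as footprints here. Each condition had 2 replicate libraries, called biological by the study, and a further 2 transcriptome libraries held fragmented total RNA of cells that received no drug. DMSO, the solvent of DMDA-PatA and harringtonine, was at one level in control and treated cells, and every lysate was prepared in cycloheximide. A drug-treated transcriptome was not measured, so a change in mRNA amount and a change in ribosomes per mRNA cannot be told apart in the drug libraries.

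Immediate early genes are switched on within minutes of a stimulus from transcription factors that are already present in the cell, and their transcription needs no new protein. Jun and Fos family proteins pair through leucine zippers to form AP-1, which binds promoters and enhancers. Their mRNAs and proteins are short-lived, and blocking protein synthesis both stabilizes the mRNAs and prolongs their transcription, which is known as superinduction. The 3 drugs act at different steps of translation. DMDA-PatA is a pateamine A analog that targets the RNA helicase eIF4A and blocks initiation, harringtonine blocks ribosomes that have just initiated, and puromycin enters the nascent chain and releases it from the ribosome.

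The transcripts differ in build. By GENCODE M21 models on GRCm38, Jun (chromosome 4, 95049034 to 95052222, minus strand), Junb (chromosome 8, 84976910 to 84978718, minus strand), Jund (chromosome 8, 70698949 to 70700616, plus strand) and Ier2 (chromosome 8, 84661331 to 84662852, minus strand) have 1 exon. These 4 of 10 compare with 3.04% of 14232 coding transcripts with a model. Ier3 (chromosome 17, 35821684 to 35822923, plus strand) has 2 exons, Fos (chromosome 12, 85473890 to 85477273, plus strand) has 4, and Atf3 (chromosome 1, 191170296 to 191183340, minus strand) has 4. The remaining models, Fosb on chromosome 7 from 19302696 to 19310051 (minus strand), Fosl1 on chromosome 19 from 5447547 to 5455946 (plus strand) and Egr1, have 4, 4 and 2 exons. The listed 5' UTR was 35 nt long for Ier3, 101 nt for Ier2, 150 nt for Fos, 951 nt for Jun and 1666 nt for Egr1, against a median of 164 nt over the listed coding transcripts. The listed 5' UTR of Jund was 1319 nt and reached far upstream of the 109 nt in the M21 model. Listed and M21 positions also differed for Junb, Fosb and Fosl1, so their 5' UTR values depend on the model the authors chose.

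Start codon sequences are shown for the 4 members that lie at the ends of the range of start contexts, since 5' UTR and ORF footprints are counted on either side of this codon. A purine 3 bases before the ATG and a G directly after it are the known marks of a favourable context. The ATG is in capitals, and the windows are chr4:95051262-95051281 for Jun, chr8:84978420-84978439 for Junb, chr8:70699048-70699067 for Jund and chr8:84662742-84662761 for Ier2, read on the strand of the gene in M21 transcripts.
Jun: ggaccgttctATGactgcaa
Junb: ggccgcccggATGtgcacga
Jund: gaaggtggggATGgaaacgc
Ier2: tcgaacaagcATGgaagtac
Jun and Junb had neither mark, as did 7.07% of 10827 coding transcripts, and Jund and Ier2 had both, as did 44.7%. Over the 9 members looked at, which leave out Egr1, 7 had the purine and 2 had the G. An ATG upstream of the start codon was found in the 5' UTR of Egr1, with 11, and of Atf3, with 1, among the 6 members whose M21 and listed positions matched. Such an ATG was present in 51.0% of 11080 coding transcripts with matching positions. The listed 5' UTR of Egr1 had 4.05 and 2.77 normalized transcriptome reads per 100 nt, against 884 and 681 per kb on its ORF. How much of that 5' UTR, and of its upstream ATGs, is present in the mRNA of these cells was not tested.

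AU-rich elements, whose core is ATTTA, mark short-lived mRNAs in their 3' UTR. ATTTA was found on the sense strand in the 3' UTR of 9 of 10 members, all except Ier2, against 67.5% of 12950 coding transcripts with a 3' UTR of at least 100 nt. Ier3 had 5 copies (8.16 per kb), Fos 4 (4.91 per kb), Junb 2 (4.12 per kb), Jun 4 (3.24 per kb) and Atf3 3 (2.53 per kb). These 5 members had at least 2 copies per kb, as did 35.4% of the coding transcripts, whose median was 1.27 per kb. The 30 bases with the densest copies are shown for 3 of them, with ATTTA in capitals, at chr12:85477101-85477130 for Fos, chr17:35822485-35822514 for Ier3 and chr4:95049207-95049236 for Jun.
Fos: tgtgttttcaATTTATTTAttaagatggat
Ier3: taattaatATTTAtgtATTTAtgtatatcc
Jun: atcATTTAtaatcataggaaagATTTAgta
A match shows only that these letters are present. Genes on the opposite strand overlap Jun (Junos), Jund (Gm11175) and Fosl1 (Ccdc85b), and whether the counting used the strand is not given in the sources used here.

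The libraries held between 618334 and 10614247 footprints on the ORFs of coding transcripts, and the transcriptome libraries held 16649611 and 38046741 reads there. The members took 0.0664% and 0.0678% of these ORF footprints in the control libraries, 0.174% and 0.185% under DMDA-PatA, 0.205% and 0.183% under harringtonine and 0.421% and 0.368% under puromycin. Their pooled share was thus above the control in all 6 drug libraries and highest with puromycin. Ier2 had the most ORF footprints of the members in every footprint library and weighs most in this share. With DMDA-PatA the members had 1073 and 1384 ORF reads. Ier2 had 988 and 1137 reads on its ORF and 5' UTR, of which 19.6% and 14.2% lay on the 5' UTR. Relative to the typical transcript, 2 members were lower and 3 higher with DMDA-PatA, beside 23.6% of all transcripts lower and 18.8% higher. The cell line was checked by its markers. All 10 stem cell markers had footprints, from 287 to 34222 per kb of ORF in the control mean, and Pou5f1 reached 5117 and 5452 per kb. The neural (3 genes) and primitive endoderm (4 genes) markers did not exceed 54.2 and 33.5 per kb. Of the 2 mesoderm markers, T reached 468 and 505 per kb, and of the 5 fibroblast markers, Col1a1 reached 3879 and 2976 per kb while Dcn had 11.1 and 2.56 per kb. None of these markers was at 0. The fibroblast markers summed to 5899 and 4447 footprints per kb in the control, against 70264 and 66567 for the stem cell markers. In the transcriptome libraries they summed to 43232 and 44524 reads per kb, against 44639 and 40477 for the stem cell markers, and Col1a1 alone had 30353 and 31344. Their part in the results was not tested.

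In cells without drug, Ier2, a nuclear protein of the immediate early response, had the most footprints for its length and Fosb the fewest. Footprints per kb of ORF, normalized to spike-in RNA, were 4077 ± 101 (SD, n = 2) for Ier2, 1094 ± 166 for Jun and 922 ± 18.7 for Junb. They were 618 ± 129 for Ier3, which modulates apoptosis, 565 ± 66.3 for the zinc finger factor Egr1 and 508 ± 40.1 for Jund. The values of Ier3 and Egr1 overlapped, as did those of Egr1 and Jund, while all other neighbours in this order were separate. Lower down were 244 ± 7.02 for Atf3, a stress-induced ATF family factor, 119 ± 41.0 for Fos, 75.3 ± 9.49 for Fosl1 and 25.3 ± 0.386 for Fosb. Ier2 thus exceeded 97.9% of 14534 coding transcripts in footprints per kb, Jun 88.8%, Fos 49.0% and Fosb 25.7%.

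The transcriptome reads gave another order. Jund and Ier2 led with 2138 ± 441 and 2130 ± 206 reads per kb of ORF and overlapped. Jun with 1385 ± 174 and Junb with 1356 ± 273 also overlapped, as did Ier3 with 929 ± 80.4 and Egr1 with 782 ± 143. Atf3 (614 ± 45.7), Fos (299 ± 62.9), Fosb (141 ± 9.67) and Fosl1 (81.0 ± 5.39) followed as separate values. Fosb and Fosl1 therefore stood in opposite order in footprints and in transcriptome reads.

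**Figure D1:**
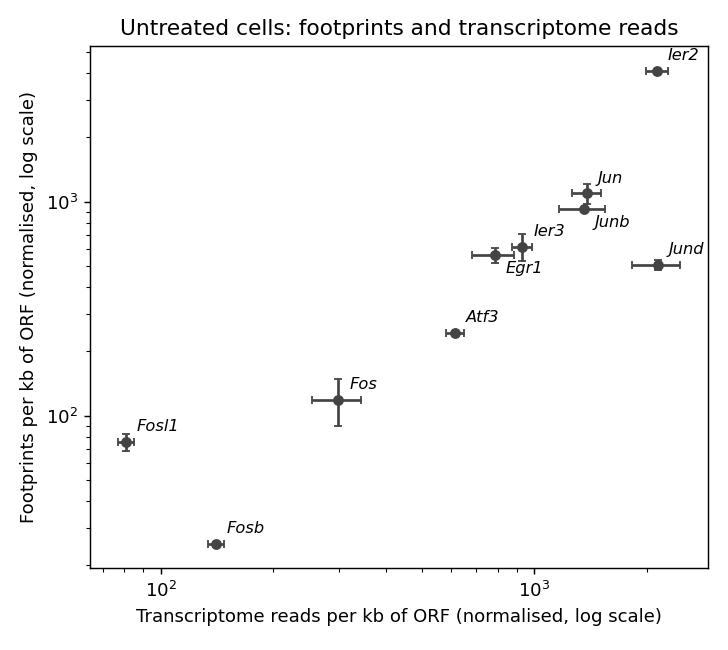
Untreated cells: normalized footprints per kb of ORF (vertical, log scale) against normalized transcriptome reads per kb of ORF (horizontal, log scale), with points at the mean and bars from the lower to the higher of 2 libraries. Jund and Ier2 share a transcriptome level near 2130 reads per kb and differ in footprints, at 508 and 4077 per kb.

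Footprints per transcriptome read, scaled so that the median of 14017 transcripts was -0.04 on the log2 scale, were higher than for the typical transcript in 6 members and lower in 2 (edgeR, adjusted p under the threshold of 0.05). Of all transcripts, 34.0% were higher and 36.4% lower. Ier2 was highest, at a log2 ratio of 2.40 ± 0.107 (SE, n = 2 against 2, adjusted p = 4.01e-10), followed by Fosl1 at 1.32 ± 0.225 (adjusted p = 0.000115), Jun at 1.11 ± 0.118 (adjusted p = 1.21e-06), Egr1 at 0.99, Junb at 0.91 and Ier3 at 0.86. Within the Jun family, Jun and Junb were thus higher while Jund was lower, at -0.60 ± 0.146 (adjusted p = 0.00201). Within the Fos family, Fosl1 was higher, Fosb lower, at -1.01 ± 0.240 (adjusted p = 0.00183), and Fos, at 0.12 ± 0.197, did not pass. Atf3, at 0.12 ± 0.159, did not pass. Differences between members were not tested.

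The question for the drugs is which footprints they remove. With the initiation blocker DMDA-PatA, ORF footprints of all 10 members were lower on the spike-in scale, and Jun, the best known AP-1 subunit, lost the most. Jun ORF had 1214 and 979 normalized footprints in the control libraries, 8.84 and 18.7 under DMDA-PatA, 383 and 193 under harringtonine and 1731 and 1847 under puromycin. The DMDA-PatA mean was 1.25% of the control mean, and the puromycin libraries were both above the control libraries. Junb ORF had 966 and 938 in the control, 31.6 and 77.1 under DMDA-PatA, 417 and 272 under harringtonine and 1336 and 999 under puromycin. Jund ORF, from the member with the most transcriptome reads, had 490 and 548 in the control, 55.6 and 88.5 under DMDA-PatA, 138 and 112 under harringtonine and 273 and 220 under puromycin. Unlike Jun and Junb, Jund lay below the control in both puromycin libraries.

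Among the Fos family, which needs a Jun partner to bind DNA, Fos ORF had 169 and 102 footprints in the control, 5.05 and 11.4 under DMDA-PatA, 26.4 and 18.9 under harringtonine and 86.9 and 123 under puromycin. Fosb ORF had 25.9 and 25.4 in the control, 2.53 and 4.06 under DMDA-PatA, 7.10 and 1.40 under harringtonine and 31.0 and 26.1 under puromycin. Fosl1 ORF had 67.2 and 56.2 in the control, 4.42 and 2.43 under DMDA-PatA, 22.3 and 12.6 under harringtonine and 35.2 and 56.0 under puromycin. All 3 Fos members lay below the control with DMDA-PatA and harringtonine, whereas with puromycin Fos overlapped the control and Fosb lay above it. With Atf3, these are the members with the fewest ORF reads in the control, and Fosb rests on 4 and 5 reads with DMDA-PatA and on 7 and 2 with harringtonine.

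The M21 model of Egr1 lies on chromosome 18 from 34859823 to 34864984 (plus strand). Egr1 ORF had 978 and 829 footprints in the control, 20.2 and 34.9 under DMDA-PatA, 111 and 69.3 under harringtonine and 548 and 389 under puromycin. Atf3 ORF had 130 and 135 in the control, 3.79 and 8.93 under DMDA-PatA, 35.5 and 18.2 under harringtonine and 78.6 and 118 under puromycin. Both transcription factors were below the control in all 6 drug libraries. Ier2 ORF had 2750 and 2656 in the control, 501 and 792 under DMDA-PatA, 2591 and 1270 under harringtonine and 3243 and 3145 under puromycin. Ier3 ORF had 341 and 253 in the control, 44.2 and 85.2 under DMDA-PatA, 310 and 171 under harringtonine and 240 and 162 under puromycin. Ier2 and Ier3 kept more footprints with DMDA-PatA than most members. With harringtonine, replicate 1 exceeded replicate 2 in all 10 members. This was not particular to them. Over all coding transcripts these libraries held 1944784 and 1672087 ORF reads, and 1 read was worth 1.01 and 0.700 normalized footprints.

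**Figure D2:**
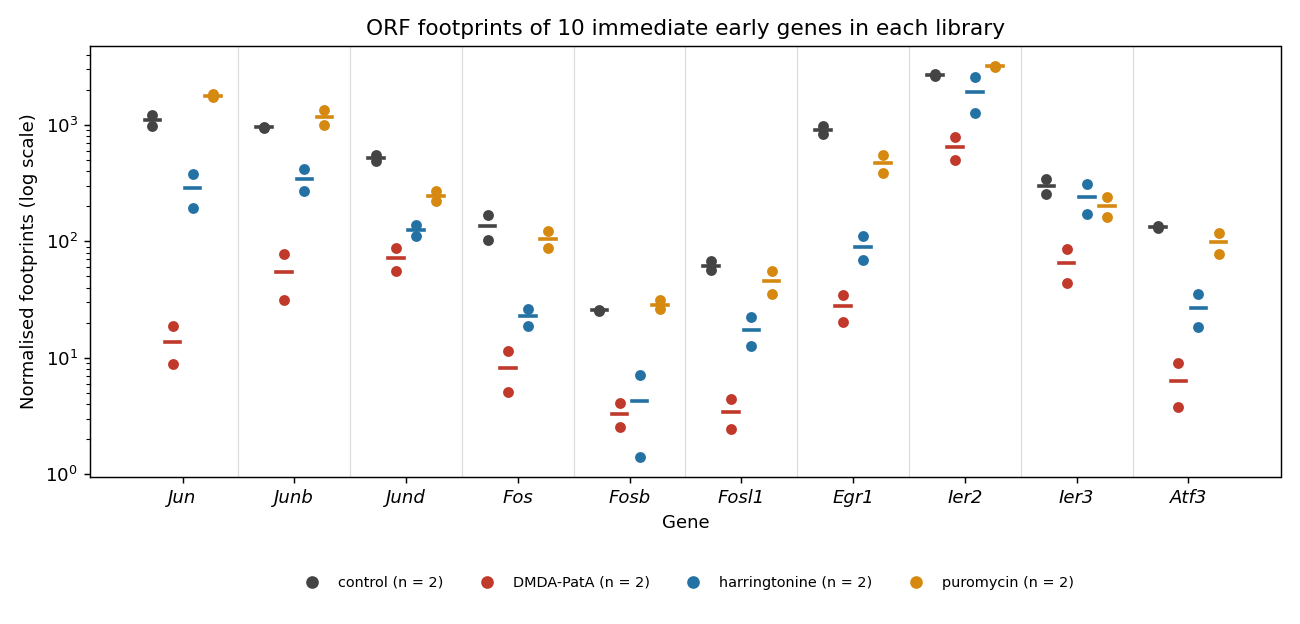
Normalized ORF footprints (log scale) of each member, with 1 point per library, n = 2 per condition, and a bar at the mean. The DMDA-PatA libraries lie below the control for all 10 members, and the puromycin libraries lie above it for Jun, Junb, Fosb and Ier2.

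With DMDA-PatA, all 10 members were called lower than the control, beside 99.3% lower and 0.0560% higher of the 12499 transcripts tested (edgeR), whose median log2 change was -4.32. The count is that of nearly every transcript, and the size of the change set the members apart more than its direction. Jun changed by -6.33 ± 0.575 (SE, adjusted p = 1.56e-26), below all but 4.04% of the transcripts, and Egr1 by -5.04 ± 0.520 (adjusted p = 1.85e-21). Atf3 (-4.40), Junb (-4.14), Fosl1 (-4.08) and Fos (-4.06) were close to the median. For ORFs up to 600 nt, the class of Atf3 and Ier3, the median was -3.73, so that Atf3 lay below its class. It was -4.17 from 600 to 1200 nt and -4.42 from 1200 to 1800 nt. Fosb (-2.95), Jund (-2.85 ± 0.456), Ier3 (-2.20 ± 0.446) and Ier2 (-2.06 ± 0.466, adjusted p = 9.96e-06) changed least, and Ier2 and Ier3 exceeded 97.1% and 96.3% of the transcripts. When libraries were scaled to the typical transcript (TMM normalization) instead of the spike-in, Jun (-2.13, adjusted p = 1.60e-06) and Egr1 (-0.83, adjusted p = 0.00693) remained lower and Jund (1.35), Ier2 (2.14) and Ier3 (2.00) were called higher. On that scale 23.6% of all transcripts were lower and 18.8% higher. Which size factors belong to the DMDA-PatA and which to the harringtonine libraries could not be settled from the sources used here, and values on the spike-in scale use them as deposited.

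With harringtonine, 8 of 10 members were called lower on the spike-in scale, beside 92.9% lower and 0.512% higher of all transcripts (edgeR), whose median log2 change was -2.97. Egr1 changed most, by -3.33 ± 0.473 (SE, adjusted p = 6.19e-12), and was the only member below that median. Fosb (-2.70), Fos (-2.59), Atf3 (-2.32), Jund (-2.06), Jun (-1.93), Fosl1 (-1.84) and Junb (-1.47) lay above it. The median moved with ORF length, however. It was -1.66 for ORFs up to 600 nt (Atf3 and Ier3), -2.62 from 600 to 1200 nt and -3.07 from 1200 to 1800 nt (Egr1). Within their own length class Egr1, Atf3 and Fosb lay below the median, Fos was close to it and the others lay above. The part of length was not tested. Ier2, at -0.49 ± 0.448 (adjusted p = 0.287), and Ier3, at -0.30 ± 0.421 (adjusted p = 0.479), did not pass. Without harringtonine replicate 1, Ier2 was at -1.09 (adjusted p = 0.0106) and Ier3 at -0.79 (adjusted p = 0.0311), and without replicate 2 Ier3 was at 0.07. With the size factors of the DMDA-PatA and harringtonine libraries exchanged, all 10 members were lower, Ier2 at -0.81 (adjusted p = 0.000849) and Ier3 at -0.60 (adjusted p = 0.0158). Relative to the typical transcript (TMM), no member was lower, and Jun, Junb, Jund, Fosl1, Ier2 and Ier3 were higher, beside 30.0% of all transcripts lower and 26.6% higher. Ier3 (2.54) and Ier2 (2.32) were highest there.

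With puromycin, ORF footprints of most members stayed near the control level while those of most transcripts fell. On the spike-in scale 2 of 10 members were called lower and none higher, beside 90.1% of all transcripts lower and 0.352% higher (edgeR), and the median log2 change was -0.38 over the members and -2.48 over all transcripts. By edgeR, Jund changed by -1.08 ± 0.430 (SE, adjusted p = 0.0143) and Egr1 by -0.95 ± 0.433 (adjusted p = 0.0321), and DESeq2 called 2 members as well. These calls were lost when any of the 4 control and puromycin libraries was left out, with adjusted p from 0.0566 to 0.152 for Jund and from 0.0644 to 0.264 for Egr1. Jun, at 0.71 ± 0.440 (adjusted p = 0.116), Junb, at 0.29 ± 0.436, Ier2, at 0.24 ± 0.448, and Fosb, at 0.14 ± 0.509, had positive values that did not pass, and Jun passed as higher without harringtonine replicate 1 or 2 (adjusted p = 0.0285 and 0.0287). Fos (-0.35), Fosl1 (-0.40), Atf3 (-0.41) and Ier3 (-0.57) did not pass. Jun ranked 68 from the top of 12499 transcripts and Junb 140, and every member lay above the median of all transcripts. The ORF count includes the start codon, where the paper reports pronounced ribosome stalling for Jun. It also reports that transcripts weakly affected by harringtonine and puromycin often have ribosome pileups there. The counts used here do not show where along the ORF the footprints lay, and the part of the start codon was not tested.

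Relative to the typical transcript (TMM), all 10 members were higher with puromycin, beside 24.3% of all transcripts higher and 24.9% lower, from Jund at 1.36 (edgeR, adjusted p = 1.91e-05) and Egr1 at 1.50 to Ier2 at 2.69, Junb at 2.74 and Jun at 3.16 (adjusted p = 3.30e-10). Puromycin was given for 20 min and the other drugs for 10 min, so drug and time cannot be told apart. The change also moved with ORF length. The median log2 change with puromycin was -1.29 for ORFs up to 600 nt, where 2 members fall, -2.14 from 600 to 1200 nt, where 7 fall, -2.65 from 1200 to 1800 nt, where Egr1 falls, and -3.14 above. All 10 members lay above the median of their own length class, and the part of length in the result was not tested.

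**Figure D3:**
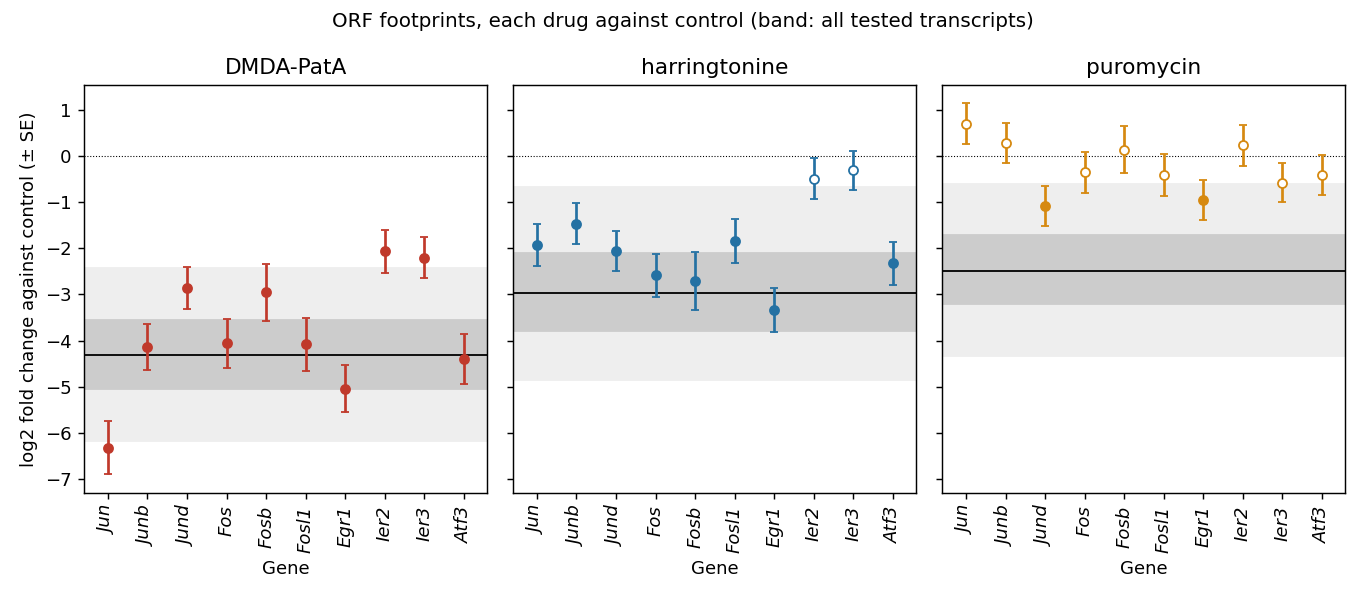
Log2 fold change of ORF footprints against the control on the spike-in scale for each member (points, ± SE, filled where the edgeR call passed), by drug. The grey bands hold the middle 50% and 90% of the 12499 tested transcripts and the line is their median, which was -4.32 under DMDA-PatA, -2.97 under harringtonine and -2.48 under puromycin, and all 10 members lie above the line with puromycin.

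The drugs were also set against each other, though with unequal times for puromycin. ORF footprints were lower with DMDA-PatA than with harringtonine in 8 of 10 members and higher in none, beside 52.8% lower and 0.432% higher of all transcripts (edgeR), and Jun differed most, by -4.40 ± 0.539 (SE, adjusted p = 1.05e-13). Jund (-0.80, adjusted p = 0.112) and Fosb (-0.25, adjusted p = 0.809) did not pass, and Jund passed without harringtonine replicate 2 (adjusted p = 0.0197). Without DMDA-PatA replicate 1 the count was 4, as Fos, Egr1, Ier2 and Atf3 were lost (adjusted p from 0.0552 to 0.239), and Fos was also lost without harringtonine replicate 1 (adjusted p = 0.0566). Relative to the typical transcript (TMM), Jun (-3.02) and Junb (-1.37) remained lower, beside 18.0% of all transcripts lower and 15.8% higher. Against puromycin, DMDA-PatA was lower in all 10 members, beside 67.4% lower and 0.432% higher of all transcripts, from Ier3 at -1.63 to Jun at -7.04 ± 0.591 (edgeR, adjusted p = 1.35e-28), and with TMM in 7, beside 19.1% lower and 17.8% higher. Harringtonine was lower than puromycin in 7 of 10 members, beside 9.94% lower and 1.20% higher of all transcripts. Fosb differed most, at -2.84 ± 0.643 (edgeR, adjusted p = 0.000647), and Jun followed at -2.64 ± 0.466. Jund (-0.98), Ier2 (-0.73) and Ier3 (0.26) did not pass, and TMM gave the same number of lower members, with Ier3 higher at 0.66 (adjusted p = 0.0287), beside 12.6% of all transcripts lower and 13.2% higher. Fosl1 was lost without either control library, harringtonine replicate 2 or either puromycin library (adjusted p from 0.0837 to 0.518), Junb without puromycin replicate 1 (adjusted p = 0.126) and Fos and Atf3 without puromycin replicate 2 (adjusted p = 0.0607 and 0.176), while Jund and Ier2 passed without harringtonine replicate 1 (adjusted p = 0.0172 and 0.0106).

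Footprints on the 5' UTR, where scanning and upstream initiation take place, did not follow the ORF. In a 5' UTR summary of its own, the paper clipped the 3' end of each 5' UTR to keep out start codon footprints. Whether the counts used here were clipped is not given in the sources used here, and the part of the start codon was not tested. Jun 5' UTR had 503 and 522 footprints in the control, 348 and 488 under DMDA-PatA, 944 and 689 under harringtonine and 3160 and 2055 under puromycin. Junb 5' UTR had 190 and 85.2 in the control, 100 and 167 under DMDA-PatA, 423 and 362 under harringtonine and 529 and 413 under puromycin. Jund 5' UTR had 9.43 and 7.25 in the control, 3.16 and 1.62 under DMDA-PatA, 66.0 and 48.3 under harringtonine and 22.7 and 29.8 under puromycin. In all 3 Jun genes the harringtonine and puromycin libraries lay above the control, and the DMDA-PatA libraries lay below it for Jun and Jund and overlapped it for Junb.

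Fos 5' UTR had 16.5 and 6.35 footprints in the control, 27.1 and 68.2 under DMDA-PatA, 96.4 and 60.9 under harringtonine and 91.0 and 112 under puromycin, so that every drug library exceeded the control. Fosb 5' UTR had 17.7 and 22.7 in the control, 5.05 and 7.31 under DMDA-PatA, 29.4 and 14.0 under harringtonine and 78.6 and 97.0 under puromycin. Fosl1 5' UTR had at most 6.20 in any library and was below the filter of 10 reads in at least 2 libraries, so it was not tested. Fosb thus lay below the control with DMDA-PatA and above it with puromycin.

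Egr1 5' UTR had 38.9 and 53.5 footprints in the control, 9.47 and 22.7 under DMDA-PatA, 138 and 92.4 under harringtonine and 236 and 211 under puromycin. Atf3 5' UTR had 18.9 and 24.5 in the control, 32.8 and 47.1 under DMDA-PatA, 77.1 and 46.2 under harringtonine and 70.3 and 78.3 under puromycin. Egr1 was below the control with DMDA-PatA and above it with the other drugs, and Atf3 was above it with all 3. Ier2 5' UTR had 50.7 and 41.7 in the control, 122 and 131 under DMDA-PatA, 363 and 206 under harringtonine and 106 and 163 under puromycin. Ier3 5' UTR had 2.36 and 1.81 in the control, 156 and 200 under DMDA-PatA, 0 and 1.40 under harringtonine and 2.07 and 1.24 under puromycin. Ier3 thus went from 2 and 2 reads in the control to 247 and 246 reads with DMDA-PatA on a 5' UTR of 35 nt, and had at most 2 reads in each harringtonine and puromycin library.

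**Figure D4:**
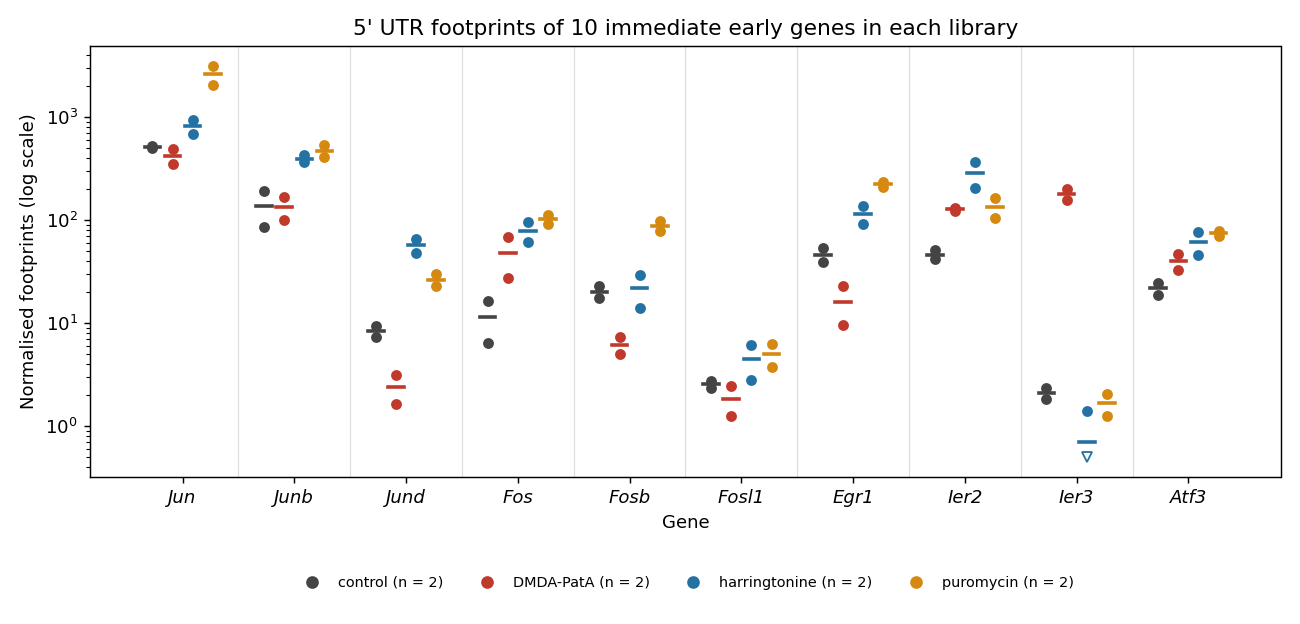
Normalized 5' UTR footprints (log scale) of each member, with 1 point per library, n = 2 per condition, and a bar at the mean. An open triangle at the lower edge marks the harringtonine library in which Ier3 had 0 reads, and Ier3 exceeds its control only with DMDA-PatA, at 156 and 200.

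With DMDA-PatA, 3 of 9 members tested were called higher on the 5' UTR and 2 lower, beside 14.7% of 6649 transcripts higher and 29.0% lower (edgeR). Fos changed by 2.08 ± 0.561 on the log2 scale (SE, adjusted p = 0.00107) and Ier2 by 1.46 ± 0.475 (adjusted p = 0.00743). Ier3, the other higher member, was at 6.35, but it reached the filter of 10 reads only through the 2 DMDA-PatA libraries, so it could enter the test only by being high there and its call is no independent result. Fosb, at -1.71 ± 0.622 (adjusted p = 0.0168), and Egr1, at -1.55 ± 0.517 (adjusted p = 0.00917), were lower. Jun (-0.30), Junb (-0.04), Jund (-1.70, adjusted p = 0.0646) and Atf3 (0.87) did not pass. Relative to the typical transcript (TMM) the same 5 members kept their directions and Atf3 was also higher (1.44, adjusted p = 0.00212), beside 26.5% of all transcripts higher and 22.5% lower. Ier3 was not tested without either DMDA-PatA library, since it then fell below the filter. Fos was lost without control replicate 2 (adjusted p = 0.114) or DMDA-PatA replicate 2 (adjusted p = 0.0732), Fosb and Egr1 without control replicate 2 or DMDA-PatA replicate 1 (adjusted p from 0.108 to 0.152), and Ier2 without control replicate 1 or 2 (adjusted p = 0.0603 and 0.122).

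With harringtonine, 6 of 9 members were higher on the 5' UTR and none lower, beside 35.0% of all transcripts higher and 5.20% lower (edgeR). Fos, at 2.81 ± 0.560 (SE, adjusted p = 9.79e-06), Jund, at 2.77 ± 0.606 (adjusted p = 5.91e-05), and Ier2, at 2.62 ± 0.485 (adjusted p = 1.76e-06), rose most. Junb (1.52), Atf3 (1.49) and Egr1 (1.31) rose less, and of these only Junb passed relative to the typical transcript, where 4 members were higher beside 21.2% of all transcripts higher and 18.7% lower. Jun (0.67), Fosb (0.07) and Ier3 (-1.22) did not pass. Junb was lost without control replicate 2 (adjusted p = 0.228), and Egr1 and Atf3 without control replicate 1 or 2 or harringtonine replicate 1 (adjusted p from 0.0860 to 0.204).

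With puromycin, 5 of 9 members were higher on the 5' UTR and none lower, beside 0.556% of all transcripts higher and 0.406% lower (edgeR). Fos changed by 3.19 ± 0.567 on the log2 scale (SE, adjusted p = 2.39e-05), Jun by 2.35 ± 0.450 (adjusted p = 0.000125), Egr1 by 2.26 ± 0.486 (adjusted p = 0.00160), Fosb by 2.11 ± 0.546 (adjusted p = 0.0184) and Junb by 1.78 ± 0.457 (adjusted p = 0.0180). Atf3 (1.77, adjusted p = 0.0693), Jund (1.67, adjusted p = 0.234) and Ier2 (1.55, adjusted p = 0.0868) had values of like size and did not pass, nor did Ier3 (-0.37). Of the 37 transcripts called higher in all, Fos and Jun had the lowest adjusted p, and 2 others, Ier5 and Zfp36l2, were in the list of further immediate early genes. Both of these were lost without either control library or puromycin replicate 1, and Zfp36l2 also without puromycin replicate 2 (adjusted p from 0.168 to 0.379). Relative to the typical transcript (TMM) the count was 7 of 9, beside 1.91% of all transcripts higher and 2.35% lower, with Atf3 and Ier2 added, and DESeq2 also called 7. The calls rest on few libraries. Without control replicate 2 none was left, Fos was at 2.62 (adjusted p = 0.183) and Jun at 2.37 (adjusted p = 0.153). Fos alone was left without control replicate 1 or puromycin replicate 1, and Fos and Jun were left without puromycin replicate 2. Without any 1 of the harringtonine or DMDA-PatA libraries, Ier2 and Atf3 passed as well (adjusted p from 0.0210 to 0.0446). In these fits the lone library of the condition is assumed to vary like the others.

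The share of a member's 5' UTR and ORF footprints that lay on the 5' UTR needs no scaling between libraries. For Jun it was 29.3% and 34.8% in the control, 97.5% and 96.3% under DMDA-PatA, 71.2% and 78.1% under harringtonine and 64.6% and 52.7% under puromycin. For Fos it was 8.92% and 5.83% in the control, 84.3% and 85.7% under DMDA-PatA, 78.5% and 76.3% under harringtonine and 51.2% and 47.6% under puromycin. The median transcript had 1.59% and 1.63% in the control, 30.0% and 32.5% under DMDA-PatA, 24.3% and 29.2% under harringtonine and 11.8% and 10.4% under puromycin. Jun and Fos were thus above the median transcript in all 8 libraries. This was so in the transcriptome libraries too, where the share does not depend on ribosomes. There it was 36.8% and 39.5% for Jun, 10.6% and 8.59% for Fos and 3.04% and 2.89% for the median transcript. The control footprint share of Jun was thus not above its transcriptome share. For Ier3 the share was 0.687% and 0.712% in the control, 77.9% and 70.1% under DMDA-PatA, 0% and 0.813% under harringtonine and 0.855% and 0.763% under puromycin. For Jund it was 1.89% and 1.31% in the control, 5.38% and 1.80% under DMDA-PatA, 32.3% and 30.1% under harringtonine and 7.69% and 11.9% under puromycin. The share was therefore highest with DMDA-PatA for Ier3 and with harringtonine for Jund. Ier2, which had the most ORF footprints, stayed at or below 19.6% in every footprint library.

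**Figure D5:**
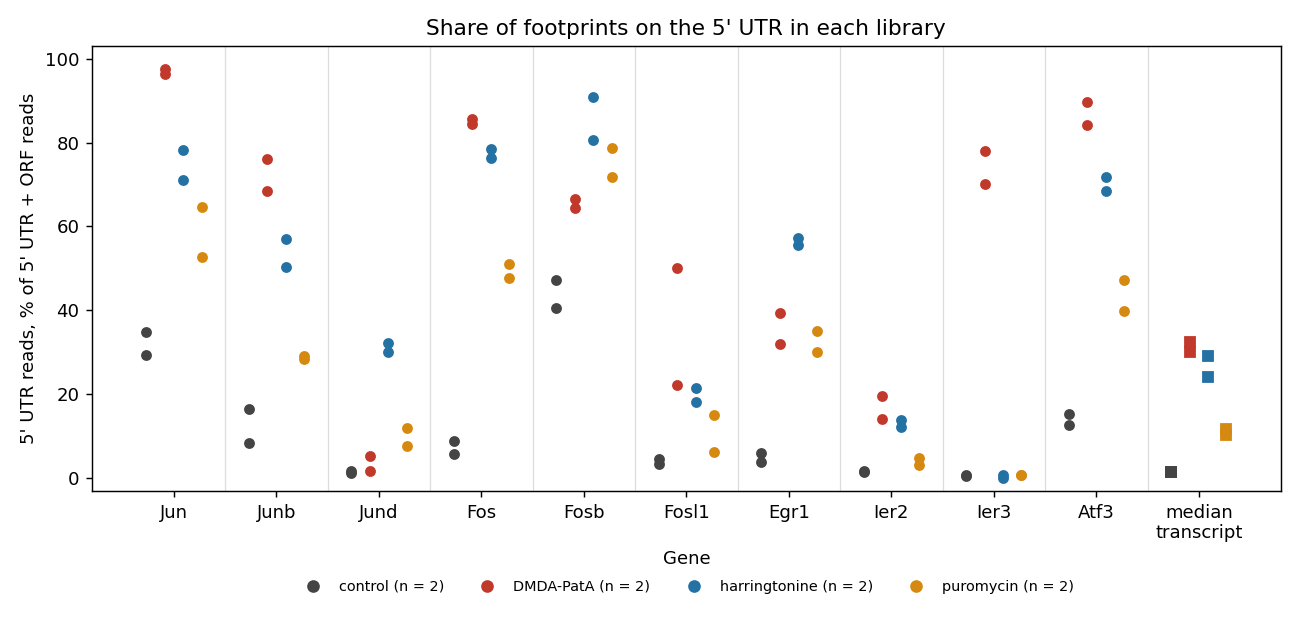
Share of 5' UTR reads among the 5' UTR and ORF reads (%) of each member in each footprint library, n = 2 per condition, with the median transcript at the right (squares). Jun with DMDA-PatA reaches 97.5% and 96.3%, and Ier3 is near 0% except with DMDA-PatA.

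The change on the 5' UTR minus that on the ORF was positive in 7 of 9 members with DMDA-PatA, in 8 with harringtonine and in 8 with puromycin, beside 93.6%, 95.4% and 78.3% of 6498 transcripts (edgeR). It was negative in no member with any drug, beside 0.139%, 0.123% and 0.0616%. The positive counts were near the background with DMDA-PatA, harringtonine and puromycin. With DMDA-PatA the difference was 6.12 ± 0.505 on the log2 scale (SE) for Fos and 6.04 ± 0.392 for Jun, against a median of 4.36. Ier3, at 8.58, again entered only through its DMDA-PatA libraries. Jund, at 1.22 ± 0.774 (adjusted p = 0.138), and Fosb, at 1.23 ± 0.726 (adjusted p = 0.111), did not pass with DMDA-PatA. With harringtonine Fos (5.39), Jund (4.82) and Egr1 (4.65) exceeded the median of 4.00 and Jun (2.65) did not reach it. With puromycin Fos (3.57), Egr1 (3.24) and Jund (2.78) exceeded the median of 2.56, and Jun was at 1.60 ± 0.318 (adjusted p = 0.000191). Ier3 did not pass with harringtonine (-0.83 ± 1.09) or puromycin (0.23 ± 1.43), where it had at most 2 reads on the 5' UTR in each library.

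Genes of the same pathway were set beside the members, with 90.1% of all transcripts lower and 0.352% higher with puromycin on the ORF, and 24.9% and 24.3% with TMM. In the list of 35 further immediate early genes, 33 were tested on the ORF, and with puromycin 21 were lower and 2 higher (Ier5 and Gadd45g), with a median log2 change of -1.39 against -2.48 over all transcripts (edgeR). Relative to the typical transcript (TMM), 21 were higher and 2 lower. Ier5, related to Ier2, had 253 and 192 footprints in the control and 720 and 429 with puromycin, a change of 1.36 ± 0.431 (SE, adjusted p = 0.00204). It was lost without control replicate 2 (adjusted p = 0.0886) or puromycin replicate 1 (0.95, adjusted p = 0.106), and Gadd45g, at 0.97, was lost without any 1 of the control and puromycin libraries (adjusted p from 0.0601 to 0.290). Klf2, a Krüppel-like factor, changed by -1.39 and Cyr61, a secreted matrix protein, by -2.37, while Sgk1, a kinase, changed by -3.93, and relative to the typical transcript (TMM) only Sgk1 of these 3 stayed negative. On the 5' UTR, 12 of 26 tested were higher with DMDA-PatA and 2 lower, against 15 and 1 with harringtonine and 2 and 0 with puromycin. Over all transcripts the shares higher and lower were 14.7% and 29.0% under DMDA-PatA, 35.0% and 5.20% under harringtonine and 0.556% and 0.406% under puromycin.

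Among the 8 other bZIP genes tested, which can pair with Jun or Fos proteins, 4 were lower with puromycin and none higher. Over all transcripts 90.1% were lower and 0.352% higher. The median of these genes was -0.78. With TMM 6 of them were higher and none lower, beside 24.3% of all transcripts higher and 24.9% lower. Atf4 had 660 and 563 footprints in the control and 213 and 427 with puromycin (-0.93, adjusted p = 0.0340, lost without either control library or puromycin replicate 1, and 1.54 with TMM), Maff was at 0.13 and Atf2 at -2.77. Of the 8 genes tested among the serum response factor, ternary complex factor and Egr partners, 6 were lower and none higher, beside the same 90.1% and 0.352%. Their median was -2.17 against -2.48 over all transcripts. Srf itself had 224 and 217 in the control and 14.5 and 24.9 with puromycin, a change of -3.43 ± 0.509 (edgeR, adjusted p = 8.92e-11), and Mkl1 changed by -5.21, while Mkl2 was at 0.51. With TMM 4 of these partners were higher and 2 lower.

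Of 9 MAP kinase pathway genes tested, which relay growth factor and stress signals to these transcription factors, 8 were lower with puromycin and none higher, a share near the 90.1% of all transcripts, with a median of -2.97, and with TMM 4 were lower and 2 higher. Mapk14, a stress-activated kinase, was at -0.78 (edgeR, adjusted p = 0.0736) and was the 1 that did not pass. It passed with DESeq2 (adjusted p = 0.0449) and without harringtonine replicate 1 or 2 (adjusted p = 0.00964 and 0.00978). All 5 AU-rich element binding genes, whose proteins control mRNAs with ATTTA elements, were lower, as were 90.1% of all transcripts, with a median of -1.49, among them Hnrnpd (-1.10), Elavl1 (-2.22) and Khsrp (-3.44). With TMM 3 of them were higher, among them Hnrnpd (1.35), and Khsrp (-0.99) was lower. Over all transcripts 24.9% were lower and 24.3% higher with puromycin and TMM. With DMDA-PatA every tested gene of these 5 lists was lower on the ORF on the spike-in scale, as were 99.3% of all transcripts.

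The transcripts nearest to Jun in their 3 ORF changes, among 8227 with at least 100 reads in each control library, were Rpl28, a ribosomal protein gene, at a Euclidean distance of 1.09 on the log2 scale, Lhfp at 1.15 and Rbm39 at 1.16. For Egr1 they were Trib3 at 0.231, Zbtb43 at 0.259 and Zfp623 at 0.295. Egr1 thus had closer neighbours than Jun, whose combined fall with DMDA-PatA and level with puromycin lay in a sparse region. The likeness is that of 3 values which share their control libraries. When 1 library was left out, between 1 and 2 of these transcripts stayed among the nearest 3 for Jun and between 0 and 3 for Egr1.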

How the data were processed

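The authors aligned SOLiD reads of the ribosome profiling and transcriptome libraries to mm10 (GRCm38) with LifeScope, left out reads with several genomic matches, kept matches of quality 10 or more and, for footprints, of 26 to 36 nt and assigned each footprint by a calibrated offset to the 5' UTR, ORF or 3' UTR of 1 transcript per gene (Ensembl 76 and RefSeq 65, among others). The submitters' processing notes name Picard 1.38. The deposited values are a signal: read counts divided by size factors, from spike-in RNA for footprints and between replicates for the transcriptome. The lowest step gave what 1 read is worth in each library, and all values were whole in that step (100% within 0.01), so reads were recovered and the authors' size factors kept. The count tests planned for counts were therefore run on recovered reads.

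Tests used edgeR 4.0.16 (quasi-likelihood, Benjamini-Hochberg adjustment over all transcripts tested, threshold 0.05) with limma 3.58.1 in R 4.3.3, on regions that reached 10 reads in 2 or more libraries. All 8 footprint libraries shared a fit with no covariate. 5' UTR change minus ORF change was the interaction of region and drug on stacked counts, and footprints per transcriptome read compared the untreated libraries. The scripts were tested on simulated data. Alternatives were TMM, DESeq2 1.42.0, exchanged size factors, no filter, the replicate block and leaving out each library. Per-kb values divide by the listed ORF length. Symbols and models came from GENCODE M21, which named 15074 of 15269 transcripts. Tables and figures used Python 3.11.15, numpy 2.4.6, pandas 2.3.3 and matplotlib 3.10.9.

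Depth ranged from 618334 to 10614247 ORF footprints per library, and read numbers cover counting error only. With 2 libraries per condition, p-values measure the spread between these libraries. The members and lists were chosen with earlier results of these data known, and adjusted p-values are over all transcripts. Named genes are all members, at most 4 per list (the 2 with most control footprints and those with the highest and lowest puromycin change) and the 3 nearest transcripts to Jun and Egr1. A gene that this rule picks is not reported here. Gadd45g and Zfp36l2 were also named after their values were seen. The list genes Batf, Batf2, Batf3, Egr2, Egr3, Egr4, Mapk10, Nr4a2 and Nr4a3 had no ORF that entered the tests.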

Additional observations from a re-analysis of the deposited data

Results flagged for a closer look

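Footprints on the 3' UTR lie outside the comparisons above. For 5 members both libraries of a drug exceeded both control libraries there, on few reads. Ier2 had 16.5 and 9.97 normalized footprints in the control, a mean of 24.5 with harringtonine (29.4 and 19.6) and a mean of 26.5 with puromycin (20.7 and 32.3). Ier3 had 8.25 and 0.906 in the control and a mean of 13.6 with harringtonine (13.2 and 14.0). Atf3 had 3.54 and 1.81 in the control and a mean of 9.31 with puromycin (12.4 and 6.22). Fosb had 0 reads in both control libraries and a mean of 1.44 with DMDA-PatA, from 2 and 2 reads. Fosl1 had 0 reads in both control libraries and a mean of 1.21 with harringtonine, from 1 and 2 reads. The differences were not tested. In the transcriptome libraries the 3' UTR of Ier2 had 1193 and 1180 normalized reads.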

How the results depend on the processing

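With TMM scaling 29 values of the members turned sign, 38 kept their direction and their side of the threshold, 12 no longer passed and 8 newly passed. With TMM in place of the spike-in, 5 members were called on the ORF with DMDA-PatA (2 lower, 3 higher). With puromycin 10 were called, all higher. Between DMDA-PatA and harringtonine 2 were called, and the 6 called with harringtonine were higher. Of all transcripts, 23.6% were lower and 18.8% higher with DMDA-PatA, and 24.9% and 24.3% with puromycin. The shares were 30.0% and 26.6% with harringtonine, and 18.0% and 15.8% for DMDA-PatA against harringtonine. The log2 changes that turned sign with TMM were, with DMDA-PatA on the ORF, Junb 0.026, Jund 1.35, Fos 0.16, Fosb 1.23, Fosl1 0.14, Ier2 2.14 and Ier3 2.00. With harringtonine on the ORF they were Jun 0.89, Junb 1.40, Jund 0.84, Fos 0.31, Fosb 0.12, Fosl1 1.02, Ier2 2.32, Ier3 2.54 and Atf3 0.51. With puromycin on the ORF they were Jund 1.36, Fos 2.13, Fosl1 2.07, Egr1 1.50, Ier3 1.88, Atf3 2.05, Atf4 1.54, Mapk14 1.66, Map2k1 0.056, Klf2 1.06, Cyr61 0.076, Hnrnpd 1.35 and Elavl1 0.23. On the 5' UTR they were Jun 0.29 and Junb 0.55 with DMDA-PatA and Jun -0.080 and Fosb -0.71 with harringtonine. Between drugs they were Jund 0.51 and Fosb 1.11 for DMDA-PatA against harringtonine and Ier3 0.12 for DMDA-PatA against puromycin. These follow from the construction of TMM, which centres the typical transcript.

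The size factors of the DMDA-PatA and harringtonine libraries were also exchanged, an alternative known from an earlier analysis of these data, since which assignment is right could not be settled from the sources used here. Then 4 members were called with puromycin on the ORF (3 lower, and Jun higher at 0.71, adjusted p = 0.00281, edgeR), and 10 were lower with harringtonine. Values that turned sign were Fosb 0.23 for DMDA-PatA against harringtonine, Ier3 -0.019 for harringtonine against puromycin, Junb 0.16 on the 5' UTR with DMDA-PatA and Fosb -0.23 on the 5' UTR with harringtonine. The cause was not tested. No count of members moved by over 1.5 times with DESeq2 or without the filter.

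Deviations of same-numbered replicates showed correlations from -0.0192 to 0.0568 over 12499 transcripts for 6 pairs of conditions. These values give no sign of pairing by replicate number. They cannot exclude it, since transcripts with few reads enter the correlation and their counting error hides a shared deviation. With the replicate block, puromycin calls fell to 1 member on the ORF and 3 on the 5' UTR, and Junb on the 5' UTR with DMDA-PatA was at 0.035. Counts of members with the block were otherwise 10 for DMDA-PatA and 8 for harringtonine on the ORF, 8 for DMDA-PatA against harringtonine, 10 for DMDA-PatA against puromycin and 6 for harringtonine against puromycin, and 5 and 6 on the 5' UTR with DMDA-PatA and harringtonine. The calls lost were Egr1 on the ORF, Junb and Fosb on the 5' UTR and Atf4 on the ORF, all with puromycin, and Fosl1 for harringtonine against puromycin (adjusted p from 0.0562 to 0.0695, edgeR).

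Leaving out each library in turn gave 0 to 3 members called with puromycin on the ORF, 4 to 9 for DMDA-PatA against harringtonine, 4 to 9 for harringtonine against puromycin, and on the 5' UTR 1 to 5 with DMDA-PatA (Ier3 was not tested without either DMDA-PatA library), 3 to 6 with harringtonine and 0 to 7 with puromycin. The libraries behind the lower ends are named with the results above, and for harringtonine against puromycin it was puromycin replicate 2. Single values that crossed 0 ranged, on the ORF, from -0.79 to 0.068 for Ier3 with harringtonine, from -0.67 to 0.043 for Fos and from -0.16 to 0.53 for Maff with puromycin, from -1.12 to 1.13 for Fosb for DMDA-PatA against harringtonine and from -0.22 to 0.64 for Ier3 for harringtonine against puromycin. On the 5' UTR they ranged from -0.51 to 0.65 for Junb with DMDA-PatA, from -0.53 to 0.53 for Fosb with harringtonine and from -0.68 to 0.0080 for Ier3 with puromycin. The 5' UTR change minus the ORF change of Ier3 with harringtonine ranged from -4.22 to 0.25. Footprints per transcriptome read ranged from -0.18 to 0.38 for Fos and from -0.040 to 0.21 for Atf3. No transcript nearest to Egr1 was kept without puromycin replicate 2, and 1 of 3 nearest to Jun without harringtonine replicate 1.

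Depth limits the ORFs of the Fos family and Atf3 and the 5' UTRs of Fosl1, Ier3 and Jund most. Over all fits that left out 1 library, 857 values of the members kept their direction and their side of the threshold, 53 no longer passed, 15 newly passed and 15 turned sign.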
